A study of Mus musculus with 44 samples.

Results

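The transcripts described here are 200 of the 25697 probes on an Illumina mouse expression beadchip. They were selected on measured values, by how far their signal in brain cortex exceeded that in both liver and white fat. Each probe is a bead type that carries 1 oligonucleotide, and its signal is the brightness of biotin-labelled RNA bound to it. The authors' processed log2 values were averaged over all brain, all liver and all fat arrays, both genotypes together, and the 200 probes with the largest brain mean minus the larger of the liver and fat means were taken. That difference is called the brain gap. Because the brain gap chose the probes, the tissue levels below are a description and carry no test. The mean over both genotypes was used in the choice, so the difference between knockout and wild type within brain was not.

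The study compared Surf1 knockout mice (KO) with wild-type mice (WT), all female, of strain B6D2F1/J and aged 8 to 12 months. It held 8 KO and 8 WT brain cortex samples, 8 KO and 8 WT livers, and 6 KO and 6 WT samples of white adipose tissue. Every sample label ends in a number. If equal numbers mark 1 animal, which the labels do not state and which is assumed here, the 44 arrays came from 23 animals, 9 of which gave all 3 tissues. The labels name no other allele, agent or treatment.

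The Surf1 protein helps to build cytochrome c oxidase, the mitochondrial enzyme that passes electrons to oxygen at the end of respiration. Neurons depend heavily on respiration for the ATP that restores ion gradients after firing. Transcripts confined to the cortex among these tissues typically encode proteins of synapses, ion channels and the neuronal cytoskeleton in neurons, myelin proteins in oligodendrocytes, and transporters in astrocytes. In whole tissue, fewer cells of a type and less RNA per cell cannot be told apart.

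None of these roles can be attached to a single probe here, because the identifiers in the files do not match the values beside them in the way gene names would. Of the 82 probes that carry the name of a marker gene of neurons, astrocytes, oligodendrocytes, microglia, hepatocytes, adipocytes or red cells, 0 were among the 200. Of 18 probes with neuronal names, 4 were detected on at least 8 of the 16 brain arrays, against 12648 of all 25697 probes. Of 17 probes with hepatocyte names, 7 passed the same limit in brain. So did 5 of 14 with astrocyte names, 10 of 14 with oligodendrocyte names and 3 of 6 with microglia names. Of the adipocyte names 7 of 11 passed, and of the red cell names 1 of 2. Detection in brain thus varied between the lists, with the oligodendrocyte names often detected. The 2 probes named for Surf1 were detected on 0 and 1 of 16 brain arrays, 0 and 1 of 16 livers and 0 and 0 of 12 fat arrays, so the knockout could not be checked on its own transcript. The probes are therefore given by identifier alone and no sequence is shown for them. Values under 1 identifier were treated as 1 probe throughout, which was not tested.

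The brain arrays stood apart in 2 ways that touch the results. Their animal numbers fell below 300 (4 KO and 5 WT) or above 500 (4 KO and 3 WT), and the labels do not say what the numbers reflect. A probe counts as detected where its detection p was under 0.05, and between 42.8% and 52.9% of all probes were detected per brain array. The lowest shares were those of Brain_WT_165, Brain_WT_138, Brain_Surf1_KO_175 and Brain_WT_136, at 42.8%, 45.0%, 45.7% and 45.9%. These 4 low-detection arrays were all from animals numbered below 300, and 3 of them were WT. KO minus WT in brain is given with and without them for the set and for the 10 members described by it. With 8 brain arrays a genotype, the number of arrays sets how precise each value is.

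The 200 probes were bright in brain, and in the other tissues they ran from undetected to clearly detected. Their brain means ran from 9.92 to 13.84 on the deposited log2 scale with a median of 11.06, and the larger of their liver and fat means from 7.02 to 10.52 with a median of 7.36. The median of all probes on the brain arrays was 7.25 on that scale. The brain gap ran from 2.74 to 6.42 with a median of 3.45, and it was over 4 for 49 probes and over 5 for 10. Over all 25697 probes its median was -0.11, and it was above 1 for 958. Among the 100 brightest probes of brain, 20 belonged to the set. The deposited values had near-equal distributions on all arrays of a tissue and keep the chip's background, so a gap understates the ratio of probes that lie near background in liver and fat.

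All 200 probes were detected on 16 of 16 brain arrays. In liver 98 of them were detected on no array and 23 on all 16, and in fat 36 were detected on no array and 76 on all 12. Sorted by where else they were seen, 32 probes were detected on no liver and no fat array, and 46 on some, but on under 8 livers and under 6 fat arrays. Another 67 were detected on at least 6 fat arrays but under 8 livers, 11 on at least 8 livers but under 6 fat arrays, and 44 reached both limits. A faint signal was thus seen in fat for more members than in liver. KO minus WT in brain, described further on, had a median of 0.07 log2 over the 32 members seen in neither other tissue and of 0.11 over the 44 seen in both. The larger of the other means was nevertheless the liver one for 125 probes, and the deposited median of all probes was 7.35 in liver and 7.09 in fat.

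The probe with the largest gap was ILMN_2711608. Its non-normalized signal had a lowest, median and highest value of 9117, 14733 and 25241 over the 16 brain arrays, against 62.3, 143 and 199 over the 16 livers and 125, 149 and 220 over the 12 fat samples. The lowest brain array was 41.4 times as bright as the brightest liver or fat array. It was detected on 1 liver array and on all 12 fat arrays, so a weak signal above background was present in fat. The second probe, ILMN_2621643, read 5245, 11694 and 14606 in brain, against 64.1, 138.65 and 192.9 in liver, where it was detected on no array, and 108, 120 and 271 in fat. With the 44 arrays normalized together, brain was at least 375-fold brighter than liver for it, taking on each liver array the higher of its own signal and that of the dimmest detected probe.

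The next 6 probes had gaps between 5.65 and 5.21. ILMN_1246034 had a median signal of 7036 in brain, against 153 in liver and 134 in fat. ILMN_3120194 had 7427 in brain, against 145 and 120, and ILMN_2913206 had 8716, against 131 and 159. In ILMN_3135473 the brain arrays ran from 1934 to 19017 with a median of 9556, a wider span than in the probes above it, against medians of 138.8 in liver and 214.6 in fat. ILMN_2686509 and ILMN_3000705 had brain medians of 6200 and 6655. Every brain array lay above every liver and fat array for each of these 8 probes.

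Of the probes detected in neither other tissue, ILMN_2831579 had the largest gap, 4.45. Its signal ran from 1910 to 5519 in brain with a median of 3154, against 56.6 to 165.1 in liver and 96.0 to 120 in fat. Normalized together and bounded as above, brain was at least 104-fold brighter than liver and at least 128-fold brighter than fat. The brightest members after ILMN_2711608 were of another kind. ILMN_2636990 had a median brain signal of 13630, against 1906 in liver and 434 in fat, and ILMN_2683414 had 12524 in brain, against 831 in liver and 1577 in fat. Both were detected on every array of the study, with gaps of 3.17 and 3.18, so their signal was higher in brain without being absent elsewhere.

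At the limit of the set the brain means were below those of most members. The last members were ILMN_2627838, with a brain mean of 9.996 and a gap of 2.7402, and ILMN_2742928, with 10.11 and 2.7371. The first probes outside were ILMN_1240738, with 9.91 and 2.7367, and ILMN_2682120, with 9.80 and 2.7235. In signal, 198 of the 200 probes had every brain array above every liver and fat array, as did 2.25% of all probes. The exceptions, chosen for naming after their values were seen, were ILMN_1230318 and ILMN_3151840, each with 1 fat array above the dimmest brain array. ILMN_1230318 read 1791 in Fat_WT_148 and 1024 on the dimmest brain array. It was also detected in Fat_WT_138, Fat_WT_139 and Fat_WT_165, at 349, 275 and 363. The remaining fat arrays, all KO ones among them, read 86.9 to 115 and did not detect it. ILMN_3151840 read 1365 in Fat_Surf1_KO_237, against 105 to 157 on the other fat arrays, and 339 on the dimmest brain array. Some livers also exceeded that brain array for it, with 378 in Liver_WT_138.

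Fat samples differed in how many of the brain-restricted probes they showed. Fat_Surf1_KO_232 had 141 of the 200 detected and Fat_Surf1_KO_237 had 130, against 98 to 118 on the other 10 fat arrays. Their shares of all probes detected, 49.4% and 51.1%, lay within or just above the range of the other fat arrays, 46.4% to 50.9%. The cause was not tested. In liver, 34 to 59 members were detected on the 4 arrays numbered above 500 and 50 to 65 on the others. Those 4 arrays also detected fewer of all probes, 31.3% to 40.8%, against 43.1% to 46.7% on the other livers.

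The comparison of KO with WT cortex asked whether these probes, brighter in brain than in liver and fat, differ when Surf1 is lost. None of the 200 probes passed the test. Signals were background corrected with neqc and quantile normalized within brain, and KO was compared with WT in limma over the 12648 probes detected on at least 8 brain arrays, at a Benjamini-Hochberg adjusted p of 0.05. With limma 0 of 200 members passed, as did 0% of all probes tested, and no member had KO and WT arrays that did not overlap, again as for 0% of all probes. At an unadjusted p under 0.05 there were 4 members, or 2%, against 2.45% of all probes tested. The differences ran from -0.45 to 1.22 log2, and 10 members differed by over 0.5, all of them higher in KO. The share of all probes that differed by as much was not counted. Without the 4 low-detection arrays the members' differences ran from -0.44 to 0.56. The standard error of a member's difference was 0.20 at the median and ran from 0.09 to 0.60, so a difference as small as the set's median was below 1 standard error for most members.

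The 5 members higher in KO with the smallest p are described first, and none of them passed the test. ILMN_2838901 had a lowest, median and highest normalized log2 signal of 10.47, 11.12 and 11.72 in KO brains, against 8.93, 10.13 and 11.53 in WT brains. The groups overlapped, with the WT values spread far lower. KO minus WT was 0.86 (SE 0.32, limma adjusted p = 0.999). It was 1.29 (SE 0.24) in animals numbered below 300 and 0.04 (SE 0.28) above 500, and 0.33 without the 4 low-detection arrays. ILMN_1239492 showed the largest difference of the set, at 9.06, 10.87 and 12.16 in KO brains, against 7.60, 9.02 and 11.62 in WT brains. The span within each genotype exceeded the difference between them. KO minus WT was 1.22 (SE 0.60, limma adjusted p = 0.999), with 1.58 below 300, 0.11 above 500 and 0.56 without those 4 arrays.

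ILMN_2831579, the probe detected in neither liver nor fat, had 11.55, 11.81 and 12.12 in KO brains, against 10.76, 11.48 and 11.89 in WT brains. Its difference of 0.38 (SE 0.14, limma adjusted p = 0.999) was similar in both number ranges, 0.42 below 300 and 0.25 above 500, and was 0.36 without the 4 arrays. ILMN_3120194, 1 of the 8 probes of largest gap, had 12.62, 13.08 and 13.51 in KO brains, against 11.76, 12.69 and 13.09 in WT brains, a difference of 0.49 (SE 0.21). It was 0.82 below 300 and -0.04 above 500, and 0.31 without the 4 arrays. ILMN_2763812 differed by 0.28 (SE 0.13), with 0.41 below 300, 0.12 above 500 and 0.24 without the 4 arrays. All 3 had a limma adjusted p of 0.999.

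The 5 members lower in KO with the smallest p differed less. ILMN_3085126 had 10.50, 10.94 and 11.21 in KO brains, against 10.75, 11.16 and 11.54 in WT brains, and its difference of -0.27 (SE 0.14) was -0.29 below 300 and -0.28 above 500. ILMN_3114339 differed by -0.35 (SE 0.21), ILMN_2694440 by -0.45 (SE 0.37), ILMN_2754787 by -0.16 (SE 0.13) and ILMN_2686097 by -0.14 (SE 0.12). Each had a limma adjusted p of 0.999, with overlapping groups. ILMN_2694440 was at -0.57 below 300 and at 0.06 above 500. Without the 4 low-detection arrays ILMN_3085126 was at -0.25, ILMN_3114339 at -0.24, ILMN_2694440 at -0.16, ILMN_2754787 at -0.10 and ILMN_2686097 at -0.14.

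As a set the members leaned to the KO side, and the lean turned round without 4 arrays. KO minus WT was above 0 for 149 of 200 members (74.5%), against 50.7% of all probes tested, with a median of 0.11 against 0.00 over all. Without the 4 low-detection arrays it was above 0 for 60 of 200 (30%), against 49.3% of all, with a median of -0.06. Among animals below 300 it was above 0 for 140 members (70%), against 51.8% of all probes, with a median of 0.13. Among animals above 500 it was above 0 for 87 members (43.5%), against 50.2% of all probes, with a median of -0.02. It was above 0 in both ranges for 59 members (29.5%), against 24.9% of all probes. With the number range as a covariate it was above 0 for 69% of members, against 52.5% of all probes, with a median of 0.07. In that fit 0 members passed in limma, against 0.00791% of all probes, with 11 at an unadjusted p under 0.05 (5.5%), against 4.48%. Without the 4 arrays 0 passed, against 0%, with 5 at an unadjusted p under 0.05 (2.5%), against 1.86%. With median centring and no quantile step, a scaling chosen after seeing the data, all probes tested shifted to a median of 0.10, the members had a median of 0.27, and 170 members lay above the median of all. Members share arrays and are not replicates, so these counts carry no test.

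Array by array, the level of the whole set varied within the lower number range and hardly at all within the upper one. The median normalized log2 signal of the 200 probes was 11.25 ± 0.17 in KO brains and 11.15 ± 0.25 in WT brains (SD, n = 8 each). In animals above 500 the 4 KO arrays lay between 11.38 and 11.40 and the 3 WT arrays between 11.38 and 11.40. In animals below 300 the 4 KO arrays ran from 10.96 to 11.25 and the 5 WT arrays from 10.84 to 11.32. The 4 low-detection arrays had the lowest values, 10.84 in Brain_WT_136, 10.85 in Brain_WT_138, 10.90 in Brain_WT_165 and 10.96 in Brain_Surf1_KO_175. The part of the detected share in this was not tested.

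The brain arrays were also compared over the whole set at once. Over the 16 arrays, with quantile-normalized values and each probe centred, a first principal component took up 72.2% of the variance of the 200 probes and 54.7% of that of all probes tested. With median centring and no quantile step it took up 64.8% for the 200 probes and 54.6% for all. The following values are on the quantile-normalized scale. The 7 arrays above 500 had scores from 5.58 to 6.24, Brain_WT_138, Brain_WT_136 and Brain_WT_165 had -10.23, -9.96 and -9.10, and Brain_Surf1_KO_175 had -5.98. With the means of the 4 combinations of genotype and number range removed, the first component still held 69.1%, against 46.7% over all probes tested. The spread of a single member within a genotype, as a residual SD, had a median of 0.43 against 0.37 over all probes tested, and it ran from 0.08 to 1.38. ILMN_2675800, ILMN_1239492 and ILMN_2662648 had the largest spread, at 1.38, 1.37 and 1.36.

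The members differed between the number ranges far more often than between genotypes. In a limma fit that also held genotype, 129 of 200 members (64.5%) differed between animals above 500 and below 300, against 52.1% of all probes tested. Of these 102 were higher above 500 (51%), against 26.5% of all probes, and 27 were lower (13.5%), against 25.6%. The arrays of the ranges did not overlap for 48 members, 38 higher and 10 lower, or 24% against 15.2% of all probes (8.56% higher and 6.63% lower). At an unadjusted p under 0.05 there were 145 members (72.5%), against 58.2%, and 144 lay above 0 (72%), against 49.4%. Without the 4 low-detection arrays 143 members passed, 99 higher and 44 lower. The share of all probes in that fit is not given here, so this count is not set against other probes. In KO brains alone 82 members passed, against 34.4% of all probes, and in WT brains alone 100, against 32.7%. In both genotypes 64 members passed in the same direction (32%), against 23.5% of all probes.

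This split depended on the scaling. With each array's log2 signal centred on its median and no quantile step, 58 members passed (29%), against 38.9% of all probes tested, with 21 higher and 37 lower. The higher ones were then 10.5% of the members, against 10.4% of all probes, and the lower ones 18.5%, against 28.5%. At an unadjusted p under 0.05 there were 78 members (39%), against 48.3%, and 85 lay above 0 (42.5%), against 36.2%. All probes tested had a median of -0.10 on that scale, and 101 of 200 members lay above it. Members that passed in the same direction on both scales numbered 46, of which 21 were higher and 25 lower (23%, against 34.2% of all probes). Another 83 passed with the quantile step alone, 12 with median centring alone and 59 in neither. In non-normalized signal the median of the 200 probes was 2002 to 2640 on the 7 arrays above 500, inside the range of 1129 to 3846 on the 9 arrays below 300. Which scaling is the better one was not tested.

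The 3 members of smallest p in each direction kept their direction and their call on both scales. ILMN_2913206, 1 of the 8 probes of largest gap, had a lowest, median and highest value of 11.94, 12.13 and 12.30 above 500, against 13.03, 13.59 and 13.78 below 300. It was 2.62-fold lower above 500 (log2 difference -1.39, SE 0.12, limma adjusted p = 5.03e-07), with -1.49 in KO and -1.29 in WT. ILMN_2627838, the last member but 1, had 8.24, 8.87 and 9.35 above 500, against 9.65, 10.75 and 11.05 below 300, and was 3.57-fold lower (limma adjusted p = 1.01e-06). ILMN_2834687 was 2.22-fold lower (limma adjusted p = 1.36e-06). In all 3 the ranges did not overlap.

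In the other direction ILMN_1255438 had 12.26, 12.56 and 12.77 above 500, against 10.56, 11.21 and 11.89 below 300, and was 2.65-fold higher (limma adjusted p = 1.75e-06). ILMN_2717345 was 2.33-fold higher and ILMN_2716935 2.67-fold higher, again without overlap of the ranges. The 3 most variable members also differed between the ranges. Their spread was taken within a genotype and includes any such difference, so this follows in part from how they were picked. ILMN_1239492 had 11.05 to 12.16 above 500, against 7.60 to 10.70 below 300, a difference of 2.27 (SE 0.30, limma adjusted p = 9.27e-06), and ILMN_2675800 differed by 2.04 (SE 0.38) and ILMN_2662648 by 1.96 (SE 0.40). For these the arrays above 500 were tightly grouped, with SDs of 0.34, 0.10 and 0.09 against 1.07, 1.17 and 1.21 below 300. Of the members with the largest gaps, ILMN_2711608 differed by -0.18 (SE 0.11, limma adjusted p = 0.160) and ILMN_2621643 by 0.91 (SE 0.16), with a limma adjusted p of 0.204 on the median-centred scale for the second.

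Whether the KO effect itself differed between number ranges was tested as an interaction. In limma 0 of 200 members passed, as did 0% of all probes, and at an unadjusted p under 0.05 there were 10 members (5%), against 3.34% of all probes. On simulated data this test recovered 0% of probes changed by 0.5 log2 and 8% of those changed by 1. A count of 0 therefore does not show that such differences were absent. The member of smallest p was ILMN_3151840, 1.47 higher in KO below 300 and different by -0.25 above 500 (difference -1.73, SE 0.45, limma adjusted p = 0.996). In animals below 300 its KO brains ran from 10.09 to 11.75 and its WT brains from 9.01 to 9.96, without overlap, and above 500 the KO brains ran from 11.25 to 12.34 and the WT brains from 11.68 to 12.24. In the positive direction ILMN_1248969 differed by -0.10 below 300 and by 0.38 above 500 (difference 0.48, SE 0.23, limma adjusted p = 0.996). KO minus WT within each range came from the same fit, and 0 members passed. Below 300 this compared with 0.00791% of all probes, with 22 members at an unadjusted p under 0.05 (11%), against 6.9%. Above 500 it compared with 0% of all probes, with 2 members at an unadjusted p under 0.05 (1%), against 1.54%. With the animals above 500 fitted alone 1 member passed (0.5%), against 0.198% of all probes. That member was ILMN_2642091, named after its values were seen, at 0.72 higher in KO (limma adjusted p = 0.00284), against 0.75 (SE 0.41, limma adjusted p = 0.999) over all 16 brains.

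Outside brain, 55 of the 200 probes were detected on at least 8 liver arrays and 111 on at least 6 fat arrays, and the others were not tested there. In liver 0 of these 55 passed in limma, as did 0% of all probes, with 3 at an unadjusted p under 0.05 (5.45%), against 6.04%, and 29 above 0 (52.7%), against 51.8%. ILMN_1239071 had 7.46, 7.82 and 8.04 in KO livers, against 6.46, 7.37 and 7.83 in WT livers, a difference of 0.51 (SE 0.17, limma adjusted p = 0.480), and in brain it differed by 0.12 (SE 0.13). ILMN_2986315 had 5.36, 6.50 and 9.31 in KO livers, against 6.96, 7.83 and 8.90 in WT livers, a difference of -1.14 (SE 0.48, limma adjusted p = 0.747). Groups overlapped in both.

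In fat 0 of 111 members passed in limma, against 0.0401% of all probes, and 17 had an unadjusted p under 0.05 (15.3%), against 14.6%. KO minus WT was above 0 for 63 (56.8%), against 52.7%. ILMN_2769325 had 6.47, 6.77 and 8.06 in KO fat, against 5.32, 5.95 and 6.53 in WT fat. KO minus WT was 0.99 (SE 0.28, limma adjusted p = 0.127), and 2 WT arrays lay within the KO range. ILMN_2706730 had 4.56, 5.46 and 8.54 in KO fat, against 6.00, 8.20 and 9.43 in WT fat. KO minus WT was -2.17 (SE 0.65, limma adjusted p = 0.145), and in brain it differed by -0.23 (SE 0.23).

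The difference of the KO effect between brain and another tissue was tested for the members detected in both. Between brain and liver 0 of 55 passed in limma, against 0.0107% of all probes, with 1 at an unadjusted p under 0.05 (1.82%), against 3.82%. Between brain and fat 0 of 111 passed, against 0.172% of all probes, with 17 at an unadjusted p under 0.05 (15.3%), against 6.87%. The smallest p belonged to ILMN_3006047, 0.43 higher in KO brain and different by -0.89 in KO fat (difference 1.32, SE 0.34, limma adjusted p = 0.106). Its lowest brain values were on the low-detection arrays Brain_WT_165, Brain_WT_136 and Brain_WT_138, at 10.57, 10.84 and 10.86. The other WT brains read 11.46 to 12.30 and the KO brains 11.42 to 12.38. The opposite lead was ILMN_1224589, at -0.09 in brain and 0.41 in fat (limma adjusted p = 0.524). Between brain and liver the leads were ILMN_2754787, with -0.16 in brain and 0.32 in liver, and ILMN_1226718, with 0.25 and -0.47 (limma adjusted p = 0.995 for both). Without the 4 low-detection arrays the difference for ILMN_1226718 was 0.41, against 0.73 with them. The fat samples all came from animals numbered below 300.

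Lists made by the same rule for the other tissues give the scale of these values. The brain gap of the last member, 2.74, compares with 4.06 for the last of 200 liver-restricted probes and 2.06 for the last of 200 fat-restricted ones, and the largest gaps were 6.42, 7.87 and 7.14. In their own tissue 0 of 200 probes passed for KO minus WT in each list, with medians of 0.11 in brain, 0.04 in liver and -0.05 in fat. These lists were not tested against each other.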

How the data were processed

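Biotin-labelled cRNA from the total RNA of each sample was read on 1 Illumina array, 44 in all, per the labels' protocols. The authors deposited the non-normalized intensity of each probe (lowest value 39.4), and beside it a column headed as a detection p-value. That deposited score rose with signal (rank correlation 0.966 or higher on every array), so 1 minus the score was used as the detection p. The authors' processed log2 values came from lumi (version not given in the sources used here), per the submitters' processing notes. Sorted, they differed by at most 0.0166 between arrays of a tissue, as quantile normalization within a tissue would leave them. Neither that step nor whether the transform was a plain log2 is stated in the labels. Each array's processed values had the order of its intensities (rank correlation 1).

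The processed values chose the members. Tests used R 4.3.3, limma 3.58.1 and statmod 1.5.0 on intensities corrected by neqc's normexp method (background from the detection p, offset 16) and quantile normalized within tissue, fitted over all detected probes (8 arrays in brain and liver, 6 in fat), two-sided, with an intensity trend and Benjamini-Hochberg adjustment. Every probe was a test of its own. The code was tested on simulated data. Interactions between tissues came from 1 fit over 44 arrays, which did not pair the tissues of an animal. Equal numbers were matched only in an alternative setting and in a check of correlations. In that check, deviations of the same number had median correlations of 0.01 (brain and liver, 9 animals), 0.00 (brain and fat, 9) and 0.10 (liver and fat, 12). The p-values measure the spread between samples taken as separate animals. Members, lists and alternatives were chosen with earlier results of these data known. Named probes are the 8 of largest gap, the 3 of highest brain signal, those at the limit, the 5 a direction of smallest p for genotype and 3 for number range, the 3 of largest spread and the lead of each other contrast. No coordinates are given.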

Additional observations from a re-analysis of the deposited data

Results flagged for a closer look

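A sample counted as standing apart where its gap to the next value exceeded Dixon's limit for its group. Of 92 groups examined, 4 held such a sample, and chance flags about 1 in 20 groups. Brain_Surf1_KO_175, 1 of the 4 low-detection arrays, was the lowest KO array for ILMN_1246034 at 12.45, against 12.94 to 13.22 on the other KO arrays. The same array was lowest for ILMN_2686509 at 12.29, against 12.67 to 12.99. Brain_Surf1_KO_1059 was lowest for ILMN_2763812 at 11.02, against 11.60 to 11.82. Fat_Surf1_KO_237 was highest for ILMN_3151840 at 10.59, against 4.52 to 5.78 on the other KO fat arrays, and was also 1 of the 2 fat arrays on which the most members were detected. The causes were not tested.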

How the results depend on the processing

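Over 733 values under an alternative setting, 721 kept their direction and their side of the threshold or moved within the limit set for them. For the median of KO minus WT in brain over the members, that limit allowed a change of sign. All 30 of its settings counted as kept, although it was -0.02 with animals above 500 alone and -0.06 without the 4 low-detection arrays. The 721 is thus no measure of how stable that median was. The count of members past the threshold for KO minus WT in brain stayed at 0 in 29 of 30 settings. It was 1 with animals above 500 alone (0.5%, against 0.198% of all probes). Leaving out each brain array in turn gave 0 to 0 for that count, a median over the members of 0.06 to 0.17, and 133 to 163 members above 0. That number was 87 with animals above 500 alone and 60 without the 4 low-detection arrays, where the median was -0.06. With animals above 500 alone the difference of ILMN_3120194 turned to -0.040 and that of ILMN_2694440 to 0.062. With median centring and no quantile step, chosen after seeing the data, the difference of ILMN_2754787 turned to 0.021 and that of ILMN_2686097 to 0.0053. Given without the shares of all probes, the number range count was 118 to 149 with 1 brain array left out. The medians were then 0.32 to 0.43, and 145 to 150 members lay above 0. With median centring the count was 58, with a median of -0.10 and 85 members above 0, while all probes tested shifted by -0.10. Leaving out the 4 low-detection arrays gave 143, with 99 higher and 44 lower, also without the share of all probes. The cause was not tested. The interaction with number range stayed at 0 in each setting, the left-out arrays included (0 to 0). Between brain and fat 1 member passed on the authors' processed values (ILMN_2609568, limma adjusted p = 0.0292, against 0.145 as reported) and 1 without the detection filter (ILMN_1230318, limma adjusted p = 0.0449). With the animal number as a random replicate block (consensus correlation 0.11 for liver and 0.10 for fat) 0 members passed between brain and liver and 0 between brain and fat, so the block changed no call. Of the 200 members, 151 were chosen again on neqc values normalized within tissue, 158 with joint normalization, 179 from animals below 300, 191 from KO arrays, 191 from WT arrays, 193 on non-normalized signal and 194 without the 4 arrays. Members near background in liver or fat could not be tested there.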
